A study of Saccharomyces cerevisiae with 11 samples.

Results

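The cytosolic and ribosome-associated Hsp70 system of Saccharomyces cerevisiae was followed as 10 named genes among 5756 listed in the count tables: 4 SSA genes, 4 genes of the ribosome-bound branch (SSB1, SSB2, SSZ1 and ZUO1) and the Hsp110 genes SSE1 and SSE2. The genes were chosen by name, with earlier results of these data known, and all 10 passed the low-count filter in every comparison. The yeast carries no genomic rDNA and lives on rRNA from a plasmid. In ΔES7S cells the plasmid rRNA lacks expansion segment ES7S of the small subunit, and in wild-type (WT) cells it has the unaltered sequence. The parent strain is yJD1045 in the series description but yJD1046 in the source field of each library, for both groups alike. Cells of both groups were grown in YPD and snap-frozen. Ribosome-protected fragments (footprints) were sequenced in 3 ΔES7S and 3 WT libraries, and poly(A)-enriched mRNA in 3 ΔES7S libraries and 2 WT libraries (replicates 2 and 3). Nothing in the labels ties a replicate to a culture or clone of its own, so p-values measure the spread between these libraries, which may be technical. The rRNA itself was not analysed here, and the deletion was therefore not checked against the labels.

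Hsp70 chaperones bind short hydrophobic stretches of unfolded proteins in a cycle driven by ATP. J-domain proteins start ATP hydrolysis, and nucleotide exchange factors release ADP and the substrate. In the yeast cytosol the Ssa proteins do the general work of folding, transport and disaggregation. Ssa2 is made constitutively, Ssa1 is constitutive and further induced by heat, and Ssa3 and Ssa4 are the stress-induced forms. Ssb1 and Ssb2 sit on the ribosome near the exit tunnel and meet nascent chains. Their J-domain partner is Zuo1, which forms the ribosome-associated complex with the atypical Hsp70 Ssz1. Sse1 and Sse2 are Hsp110 proteins, exchange factors for both Ssa and Ssb, and SSE2 is the stress-induced gene of that pair. SSB and the genes of the ribosome-associated complex are known to be expressed together with ribosomal protein genes and to be repressed under stress.

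The libraries held 5712239 to 57968667 counts, and no member fell below 821 counts in any library. The 10 genes took 0.919% to 1.07% of footprint counts in ΔES7S and 0.800% to 1.11% in WT, and 0.545% to 0.598% of mRNA counts in ΔES7S against 0.611% and 0.663% in WT. Cytosolic ribosomal protein genes took 11%, 7.91% and 5.33% of footprints in ΔES7S replicates 1, 2 and 3, but 5.31% to 5.46% in WT. Of mRNA counts they took 14.4%, 16.4% and 13.0% in ΔES7S, against 10.5% and 12.8% in WT. They thus also had a larger share of mRNA than of footprints in both strains, and a larger mRNA share in every ΔES7S library than in WT. SSA1 with SSA2 and SSB1 with SSB2 are near-identical copies, SSA3 with SSA4 and SSE1 with SSE2 are closely related, and how reads that fit several genes were counted is not given in the sources used here. Values for single copies are therefore uncertain, and sums over each pair are given beside them. Levels below are CPM, a gene's count scaled to the same total in every library, and levels are compared between genes only per kb of annotated length.

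Footprints were led by SSA1 (YAL005C) and SSE1 (YPL106C) in both strains, while mRNA was led by ZUO1 (YGR285C). In ΔES7S footprints SSA1 averaged 1366 ± 140.2 CPM per kb (SD, n = 3) and lay apart from SSE1 at 890.2 ± 58.5, which lay apart from SSA2 (YLL024C) at 667 ± 92.8. SSE2 (YBR169C, 503), ZUO1 (362), SSA4 (YER103W, 357), SSB1 (YDL229W, 326), SSB2 (YNL209W, 320.2), SSA3 (YBL075C, 266) and SSZ1 (YHR064C, 262) followed in mean footprint CPM per kb. From SSA2 down, the libraries of each gene overlapped those of the next in that order. In WT footprints the ranges of SSA1 (1179 ± 266 CPM per kb, SD, n = 3) and SSE1 (1156 ± 172) overlapped. SSA2 came next at 615 ± 142, its range overlapping that of ZUO1 at 467 ± 24.6, and SSZ1 at 332 ± 10.7 lay apart from ZUO1 above it and SSB2 below it. SSB2 (302), SSA4 (299), SSB1 (288), SSE2 (245) and SSA3 (178 CPM per kb) each overlapped the next. SSE2 thus stood in the fourth place of the footprint order in ΔES7S and in the ninth in WT.

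The order of mRNA levels was different from that of footprints. In ΔES7S mRNA the top group was ZUO1 with 654 ± 68.2 CPM per kb (SD, n = 3), SSB2 with 594 ± 103, SSB1 with 554 ± 89.7 and SSE1 with 476 ± 24.7, each overlapping the next. SSA1 (294), SSA2 (242), SSZ1 (199) and SSE2 (114 CPM per kb) followed, with SSA3 at 60.6 ± 9.74 and SSA4 at 27.9 ± 4.80 apart at the bottom. In WT mRNA ZUO1 stood alone at 790.5 ± 82.0 CPM per kb (SD, n = 2), and SSB2 (476), SSE1 (469), SSA1 (466), SSB1 (458), SSZ1 (426) and SSA2 (369) overlapped each with the next. SSE2 (82.8), SSA3 (52.6) and SSA4 (37.9 CPM per kb) lay below, each apart from its neighbour. Among 5749 protein-coding genes ranked by level per kb, SSA4 was number 609 in footprints but number 3448 in mRNA in ΔES7S, and number 715 against number 3275 in WT.

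**Figure D1:**
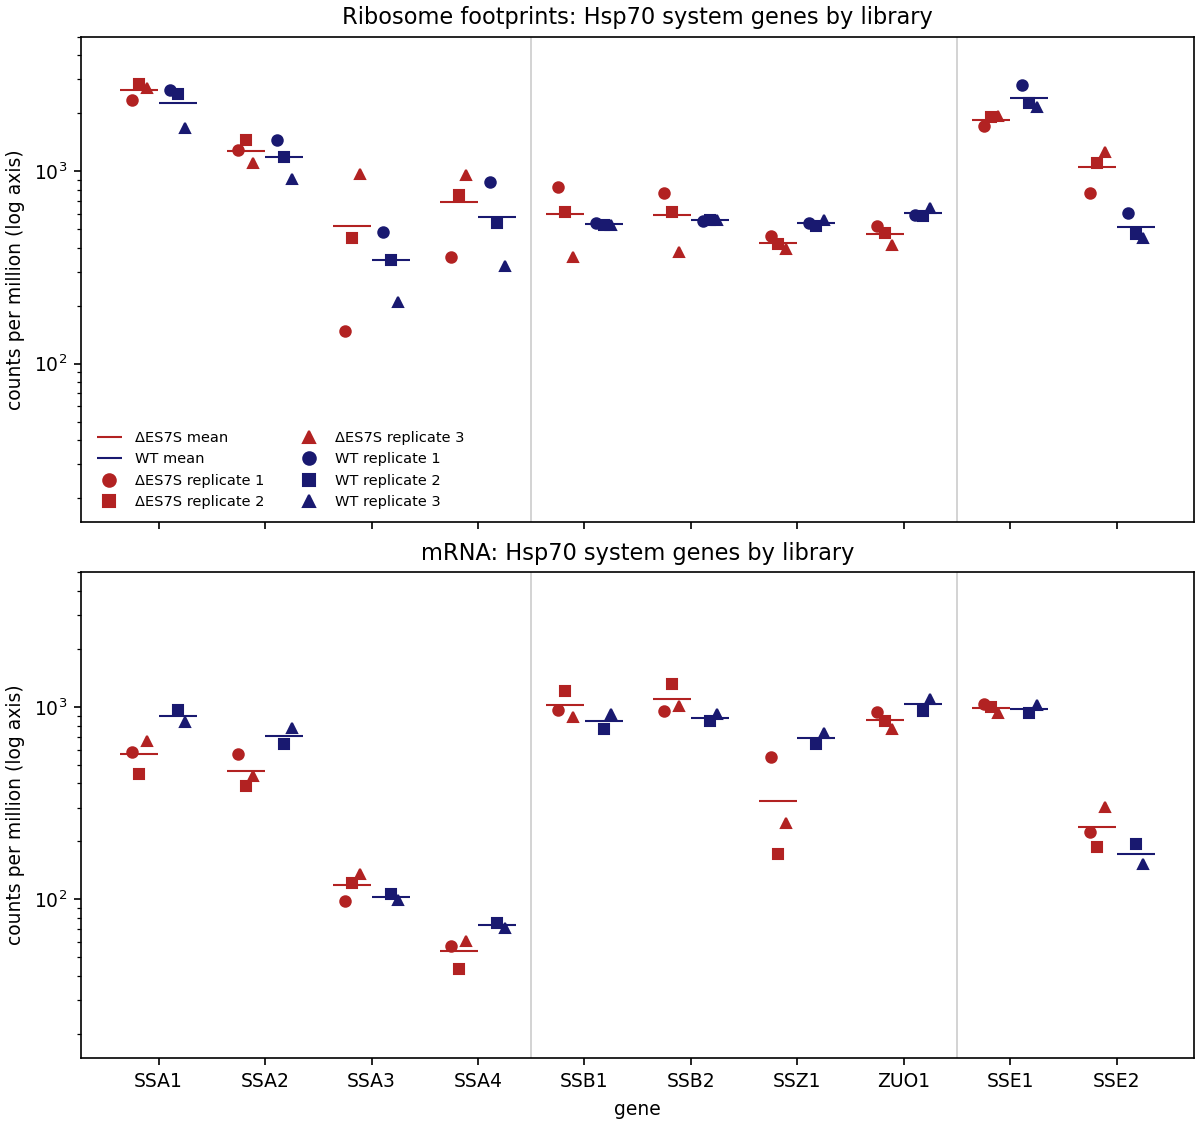
CPM (log axis) of the 10 genes in footprint libraries (top) and mRNA libraries (bottom), ΔES7S in red left of WT in dark blue. Points are libraries, with 1 marker shape per replicate number, and dashes are group means. SSE2 footprints lie between 769 and 1262 CPM in ΔES7S, above all WT libraries (448 to 609).

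Within each strain, footprints were set against mRNA, which ranks genes by footprints per transcript relative to the other genes of the library. All 4 SSA genes were higher in footprints than in mRNA in both strains. Of the ribosome-bound branch SSB1, SSB2 and ZUO1 were lower in ΔES7S, and ZUO1 in WT. In ΔES7S 6 of the 10 genes were higher in footprints than in mRNA and 3 lower, beside 35.2% of 5588 genes called higher and 36.7% called lower. In WT 6 were higher and 1 lower, beside 31.5% and 31.6% of all genes. All tests of this kind are edgeR's quasi-likelihood test in 1 model over the 11 libraries, adjusted by Benjamini-Hochberg over all genes tested.

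SSA4, a stress-induced Hsp70, had the highest value of the members in both strains. Its footprints were at 357, 751 and 958 CPM in ΔES7S, against mRNA at 57.2, 43.3 and 60.9 CPM. In WT its footprints were at 878, 535 and 321 CPM, against mRNA at 75.4 and 71.0 CPM. Every footprint library lay above every mRNA library, and the fitted footprint excess was 12.1-fold in ΔES7S (log2 3.59 ± 0.40, SE; adjusted p = 6.41e-06) and 8.35-fold in WT (3.06 ± 0.46; adjusted p = 0.000101). This placed SSA4 at number 43 and number 62 of 5588 genes ordered by that value.

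SSA3 had 147, 449 and 962 CPM of footprints in ΔES7S, against 98.1, 121 and 136 CPM of mRNA. In WT it had 486, 345 and 209 CPM of footprints, against 106 and 99.3 CPM of mRNA. Footprints were above mRNA throughout, but ΔES7S replicate 1 exceeded the highest mRNA library only slightly. The fitted excess was 4.03-fold in ΔES7S (log2 2.01 ± 0.52) and 3.57-fold in WT (1.84 ± 0.60). The ΔES7S value was 1.24 on the log2 scale without the footprint library of ΔES7S replicate 3. The WT call was lost without WT mRNA replicate 2 (adjusted p = 0.0861), WT mRNA replicate 3 (0.0943) or WT footprint replicate 1 (0.0568).

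SSA1 had a footprint excess of 4.39-fold in ΔES7S (log2 2.14 ± 0.22) and 2.68-fold in WT (1.42 ± 0.25). SSA2 had 2.63-fold in ΔES7S (1.39 ± 0.21) and 1.76-fold in WT (0.81 ± 0.24), the WT call being lost without WT mRNA replicate 2 (adjusted p = 0.103) and with replicate numbers as a block (0.0695). Summed as a pair, SSA1 and SSA2 had 3.60-fold in ΔES7S and 2.27-fold in WT, and SSA3 and SSA4 had 6.51-fold in ΔES7S and 5.57-fold in WT. The SSA genes therefore all had more footprints per mRNA than the median gene, which lay at log2 -0.02 in ΔES7S and 0.00 in WT.

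Of the ribosome-bound branch none passed the test as higher in footprints than in mRNA (0 by edgeR in either strain). ZUO1 footprints were 0.520 of mRNA in ΔES7S (log2 -0.94 ± 0.17, adjusted p = 0.000221) and 0.621 in WT (-0.69 ± 0.18, adjusted p = 0.00492, but 0.07 without WT mRNA replicate 3). SSB1 and SSB2 had -0.88 ± 0.28 and -1.01 ± 0.27 in ΔES7S, and -0.60 ± 0.31 and -0.58 ± 0.29 in WT, where neither passed the test (adjusted p = 0.107 and 0.0963). The sum of both had -0.94 ± 0.28 in ΔES7S (adjusted p = 0.00841) and -0.59 ± 0.31 in WT (adjusted p = 0.109). The SSB1 call in ΔES7S was lost without ΔES7S mRNA replicate 2 (adjusted p = 0.0615). The WT values of SSB1 and SSB2 passed without the footprint library of ΔES7S replicate 3 (adjusted p = 0.0309 and 0.0332), and SSB2 also without ΔES7S mRNA replicate 2 (0.0451). SSZ1 did not pass in ΔES7S (0.37 ± 0.26) or WT (-0.28 ± 0.29). Without ΔES7S mRNA replicate 1 its ΔES7S value was 0.85 (adjusted p = 0.000323).

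The Hsp110 genes also carried more footprints than mRNA. SSE2 had a footprint excess of 4.13-fold in ΔES7S (log2 2.05 ± 0.23) and 3.13-fold in WT (1.64 ± 0.26). SSE1 had 1.75-fold in ΔES7S (0.80 ± 0.18) and 2.59-fold in WT (1.37 ± 0.21). Median log2 values were 2.08 for the 4 SSA genes against -0.91 for the 4 ribosome-bound genes in ΔES7S, and 1.63 against -0.59 in WT. SSZ1 in ΔES7S was the sole ribosome-bound value above 0, and the lowest SSA value was SSA2 in WT at 0.81. A footprint excess was not particular to the SSA and SSE genes. Of 14 cytosolic Hsp70 cochaperones, listed below, 11 were higher and 3 lower in ΔES7S, and 9 higher and 2 lower in WT. Of 17 other nascent-chain chaperones, 7 were higher and 3 lower in ΔES7S, and 10 higher and 0 lower in WT. The shares of all genes are those given above.

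**Figure D2:**
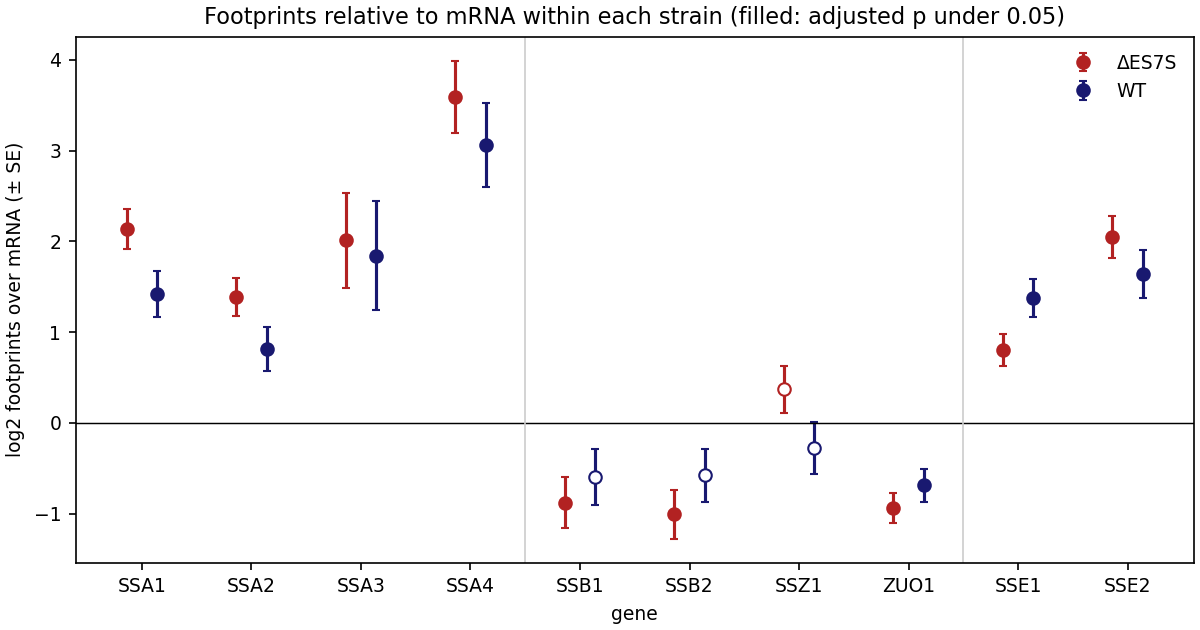
Fitted log2 ratio of footprints to mRNA (± SE) of each gene, ΔES7S in red left of WT in dark blue, filled where the adjusted p was under 0.05. The SSA and SSE genes lie between 0.80 and 3.59, and the ribosome-bound genes between -1.01 and 0.37.

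The first comparison between the strains asks which genes of the system differed in footprints. SSE2 rose, and no other member passed the test by edgeR, DESeq2 or limma-voom. One of 10 higher stands beside 14.2% of 5442 genes called higher, and 0 lower beside 12.6% called lower (0 members lower at an unadjusted p under 0.05, and 0 by DESeq2 or limma-voom). The median log2 fold change was 0.30 for the SSA genes and -0.06 for the ribosome-bound branch, against 0.00 for all genes. Fold changes are ΔES7S over WT, fitted on TMM-scaled counts of the 6 footprint libraries.

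SSE2, the stress-induced Hsp110 exchange factor, had 769, 1109.6 and 1262 footprint CPM in ΔES7S, against 609, 474 and 448 CPM in WT. The groups did not overlap, and the log2 fold change was 1.11 ± 0.21 (SE; 2.15-fold; adjusted p = 0.00378 by edgeR), the 75th highest of 5442. It ran from 0.97 to 1.29 with single libraries left out, at adjusted p from 5.88e-05 to 0.033. Its constitutive partner SSE1 had 1714, 1907 and 1939 CPM in ΔES7S, against 2815, 2257 and 2147 CPM in WT. All ΔES7S libraries of SSE1 lay below all WT libraries, but the difference did not pass the test (-0.30 ± 0.17, adjusted p = 0.206). The footprint ratio of SSE2 to SSE1 per kb was 0.448, 0.582 and 0.651 in ΔES7S, against 0.216, 0.210 and 0.209 in WT. The footprint ratio thus was nearly the same in all WT libraries and higher in each ΔES7S library. In mRNA it was 0.217, 0.188 and 0.322 in ΔES7S, against 0.207 and 0.149 in WT, and the groups overlapped. Counted as a sum, SSE1 and SSE2 together showed no difference past the test (0.06 ± 0.18, adjusted p = 0.818). Mean footprints of SSE1 were 1853 CPM in ΔES7S and 2406 CPM in WT, and those of SSE2 were 1047 and 511 CPM. The differences of the copies thus ran in opposite directions. Whether reads that fit both copies had a part in this was not tested.

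No SSA gene passed the test in footprints, and their values differed widely between libraries of the same strain. SSA1 had 2334, 2856 and 2715 CPM in ΔES7S, against 2628, 2507 and 1686 CPM in WT (log2 fold change 0.28 ± 0.20, adjusted p = 0.332). SSA2 ran from 1103 to 1459 CPM in ΔES7S and from 906 to 1452 CPM in WT (0.19 ± 0.20, adjusted p = 0.528). Both genes overlapped between the strains. The stress-induced forms spread most: the SSA3 values given above had 0.64 ± 0.69 (adjusted p = 0.544) and those of SSA4 0.32 ± 0.47 (adjusted p = 0.653). All WT libraries of SSA3 lay between the lowest and the highest ΔES7S library. Without ΔES7S replicate 3 the SSA3 log2 fold change was -0.13.

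The ribosome-bound branch did not pass the test in footprints either. SSZ1 had 461, 419.6 and 392 CPM in ΔES7S, against 536, 521 and 556 CPM in WT (-0.27 ± 0.13, adjusted p = 0.154). ZUO1 had 522, 478 and 415 CPM in ΔES7S, against 591, 587 and 645 CPM in WT (-0.29 ± 0.14, adjusted p = 0.153). For these members of the ribosome-associated complex every ΔES7S library lay below every WT library, which with SSE1 makes 3 members lower without overlap, beside 27.3% of all genes. SSE2 was the 1 member higher without overlap, beside 17.2%.

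SSB1 had 830, 612 and 359 footprint CPM in ΔES7S, against 537, 527 and 526 CPM in WT. SSB2 had 774, 615 and 381 CPM in ΔES7S, against 548, 561 and 560.2 CPM in WT. The WT libraries lay close together for each gene, and ΔES7S libraries lay on either side of them. Log2 fold changes were 0.26 ± 0.26 for SSB1 and 0.16 ± 0.23 for SSB2 (adjusted p = 0.509 and 0.632), and 0.21 ± 0.25 for their sum. Without ΔES7S replicate 3 they were 0.53 and 0.40 (adjusted p = 0.0168 and 0.0451), and without ΔES7S replicate 1 they were -0.05 and -0.08.

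The spread within ΔES7S ran in opposite directions for SSB and for the stress-induced SSA genes. The sum of SSA3 and SSA4 was 504, 1200.2 and 1920.1 footprint CPM in ΔES7S replicates 1, 2 and 3, and that of SSB1 and SSB2 was 1604, 1227 and 739.6 CPM. The ΔES7S library with the most SSB footprints had the largest ribosomal protein share, 11%, and the one with the fewest had 5.33%. In WT replicates 1, 2 and 3 the sum of SSA3 and SSA4 was 1364, 879.9 and 529 CPM, while the SSB sum stayed between 1085 and 1088 CPM and the ribosomal protein share between 5.31% and 5.46%. The WT spread in stress-induced SSA footprints was thus seen without a spread in SSB or ribosomal protein footprints. The part of the ribosomal protein share in the SSB and SSA values was not tested.

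**Figure D3:**
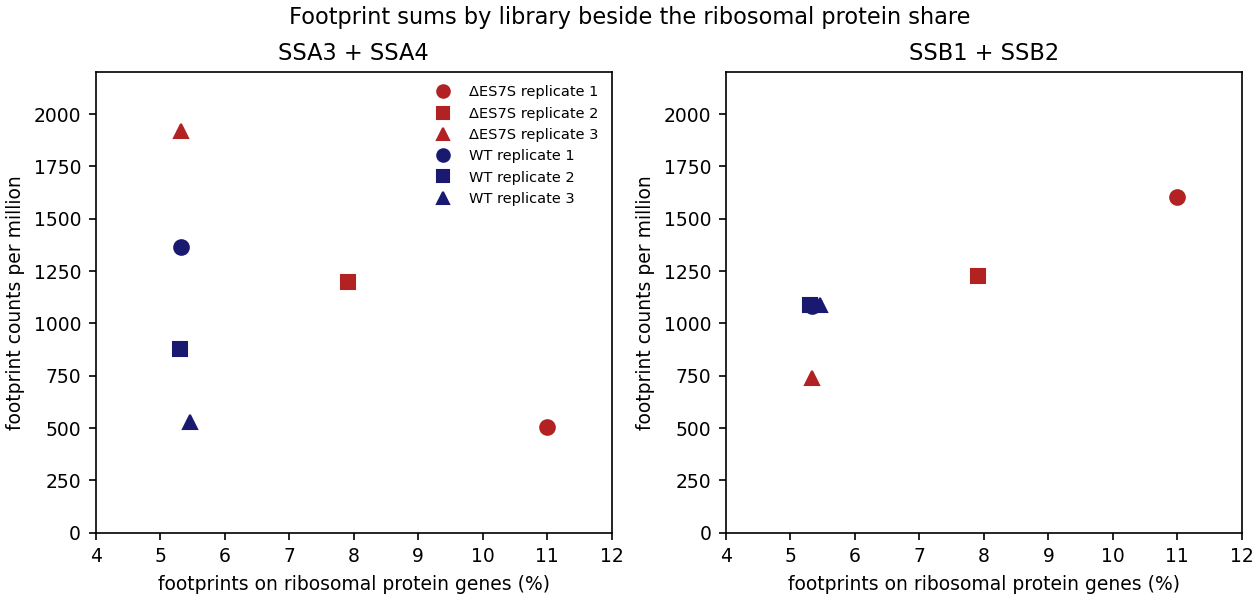
Footprint CPM of SSA3 plus SSA4 (left) and SSB1 plus SSB2 (right) in each footprint library against the share of its footprints on cytosolic ribosomal protein genes (%), ΔES7S in red and WT in dark blue. The ΔES7S libraries spread from 5.33% to 11%, and the WT libraries lie together at 5.31% to 5.46%.

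The second comparison asks whether the mRNAs differed. None of the 10 passed the test by edgeR, beside 1.19% of 5611 genes called higher and 1.57% called lower. At an unadjusted p under 0.05 there were 3 members by edgeR (SSA1, SSZ1 and SSE2). The share of all genes at that threshold was not counted, and the called shares do not stand for it. DESeq2 called SSE2 higher (log2 0.69, adjusted p = 0.0336), with 1036 genes called in all, and limma-voom called 0 members, with 323 genes called in all. The edgeR fit had 2 WT libraries, and it called 155 genes in all, but 2467 without ΔES7S replicate 1 and 0 without any 1 of the other libraries. Medians were -0.34 for the SSA genes and 0.20 for the ribosome-bound branch, against -0.01 for all genes.

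SSZ1 had the lowest value of the members. Its mRNA was at 549, 171 and 248 CPM in ΔES7S, against 643 and 734 CPM in WT. All ΔES7S libraries lay below WT, replicate 1 least so, and the log2 fold change was -0.95 ± 0.37 (SE; adjusted p = 0.141). Without ΔES7S replicate 1 it was -1.46 (adjusted p = 0.00219), and in a fit over all 11 libraries it was -0.92 (adjusted p = 0.0356). Its partner ZUO1 had 944, 842 and 767 mRNA CPM in ΔES7S, against 954 and 1105 CPM in WT (-0.08 ± 0.21, adjusted p = 0.821). SSB1 had 967, 1206 and 889 mRNA CPM in ΔES7S, against 765 and 924 CPM in WT (0.49 ± 0.27, adjusted p = 0.248). SSB2 had a similar difference (0.54 ± 0.28, adjusted p = 0.219, but 0.0499 without ΔES7S replicate 1). Within the ribosome-bound branch, mRNA values of SSB and of SSZ1 thus lay on opposite sides of the median gene, with none past the test.

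SSA1 mRNA was at 583, 449 and 667 CPM in ΔES7S, against 959.9 and 836 CPM in WT, without overlap. SSA2 was at 569, 386 and 438 CPM in ΔES7S, against 640.2 and 779 CPM in WT, also without overlap. Their log2 fold changes were -0.48 ± 0.20 and -0.43 ± 0.19 (adjusted p = 0.158 and 0.174), and -0.46 ± 0.20 for the sum (adjusted p = 0.165). SSA4, with the values given above, had -0.26 ± 0.15 (adjusted p = 0.258), and SSA3 0.42 ± 0.21 (adjusted p = 0.213, but 0.00608 at 0.60 without ΔES7S replicate 1). SSA3 and SSA4 summed had 0.17 ± 0.18. SSE2 mRNA was at 225, 188 and 301 CPM in ΔES7S, against 193 and 152 CPM in WT (0.66 ± 0.22, adjusted p = 0.11, but 0.0186 at 0.77 without ΔES7S replicate 1). SSE1 had 0.22 ± 0.21 (adjusted p = 0.482). In CPM, 5 members lay lower without overlap (SSA1, SSA2, SSA4, SSZ1 and ZUO1) and 1 higher (SSB2), beside 37.7% and 16.1% of all genes. With TMM scaling ZUO1 overlapped, and SSB1, SSE1 and SSE2 lay above WT as well. The share of all genes without overlap under TMM scaling was not counted, and the CPM shares do not stand for it.

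**Figure D4:**
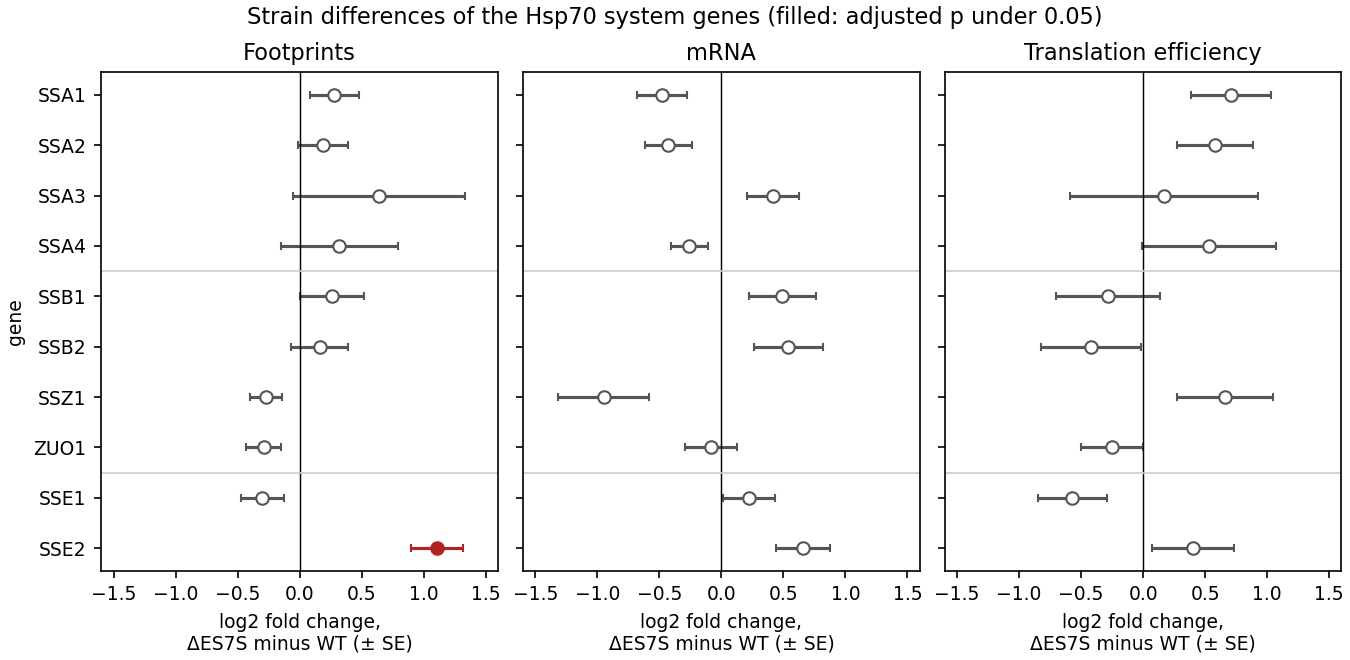
Log2 fold change (± SE) of each gene, ΔES7S minus WT, in footprints (left), mRNA (middle) and translation efficiency (right), filled where the adjusted p was under 0.05. The sole filled point is SSE2 in footprints at 1.11.

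The third comparison asks whether footprints per mRNA (translation efficiency) differed between the strains. None of the 10 passed the test by edgeR, DESeq2 or limma-voom, beside 4.63% of 5588 genes called higher and 4.33% called lower by edgeR. At an unadjusted p under 0.05 there was 1 member by edgeR (SSA1), and that share of all genes was not counted. SSA1 and SSA2 had 0.71 ± 0.32 and 0.58 ± 0.31 (SE; adjusted p = 0.16 and 0.231), and 0.66 ± 0.30 as a sum (adjusted p = 0.169). SSA4 had 0.53 ± 0.54 and SSA3 0.17 ± 0.76. For SSA1 and SSA2 this joined a footprint value above 0 with an mRNA value below 0. SSB1 and SSB2 had -0.28 ± 0.42 and -0.42 ± 0.40, ZUO1 had -0.25 ± 0.25, and SSZ1 had 0.66 ± 0.39 (adjusted p = 0.281, but 0.00273 at 1.13 without ΔES7S mRNA replicate 1). SSE1 had -0.57 ± 0.28 (adjusted p = 0.189) and SSE2 0.40 ± 0.33 (adjusted p = 0.446). The medians were 0.55 for the SSA genes and -0.26 for the ribosome-bound branch, against -0.01 for all genes. The standard errors of the 10 genes ran from 0.25 to 0.76.

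Ratios within a library set the ribosome-bound Hsp70 against the general one without any scaling between libraries. Per kb, footprints of SSB1 plus SSB2 over SSA1 plus SSA2 were 0.464, 0.297 and 0.203 in ΔES7S, against 0.278, 0.308 and 0.438 in WT. The ratio overlapped between the strains, with means of 0.321 ± 0.132 in ΔES7S and 0.341 ± 0.0853 in WT (SD, n = 3 each). In mRNA the same ratio was 1.75, 3.15 and 1.80 in ΔES7S, against 1.05 and 1.19 in WT, and the groups did not overlap. SSB mRNA per kb thus exceeded SSA1 plus SSA2 mRNA in all 5 libraries, while SSB footprints lay below SSA1 plus SSA2 footprints in all 6. Lack of overlap between 3 and 2 mRNA libraries is common. In mRNA CPM 16.1% of all genes lay higher and 37.7% lower without overlap. That share was not counted for ratios, here or below.

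The stress-induced SSA3 plus SSA4 over SSB1 plus SSB2 was 0.299, 0.930 and 2.47 in ΔES7S footprints, against 1.2, 0.769 and 0.463 in WT footprints. In mRNA it was 0.0765, 0.0617 and 0.098 in ΔES7S, against 0.107 and 0.0879 in WT. The footprint ratio was thus above the mRNA ratio in every library, and spread over a wider range in ΔES7S than in WT. SSE1 plus SSE2 footprints relative to all SSA footprints per kb were 0.558, 0.507 and 0.517 in ΔES7S, against 0.583, 0.553 and 0.770 in WT, with overlap. In mRNA the same ratio was 0.891, 1.11 and 0.878 in ΔES7S, against 0.585 and 0.609 in WT. All ΔES7S libraries lay above WT, with the limit on overlap given above.

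SSZ1 and ZUO1 encode a heterodimer, and their footprint ratio per kb was tight: 0.712, 0.706 and 0.760 in ΔES7S, against 0.729, 0.716 and 0.694 in WT. Their mRNA ratio was 0.468, 0.163 and 0.260 in ΔES7S, against 0.543 and 0.535 in WT. The mRNA ratios of ΔES7S were all below those of WT, with the same limit on overlap, and the footprint ratios overlapped. SSB1 to SSB2 stayed between 0.877 and 1.07 in all 11 libraries, with the limit on near-identical copies given above. SSA1 to SSA2 was between 1.80 and 2.45 in footprints and between 1.02 and 1.52 in mRNA.

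**Figure D5:**
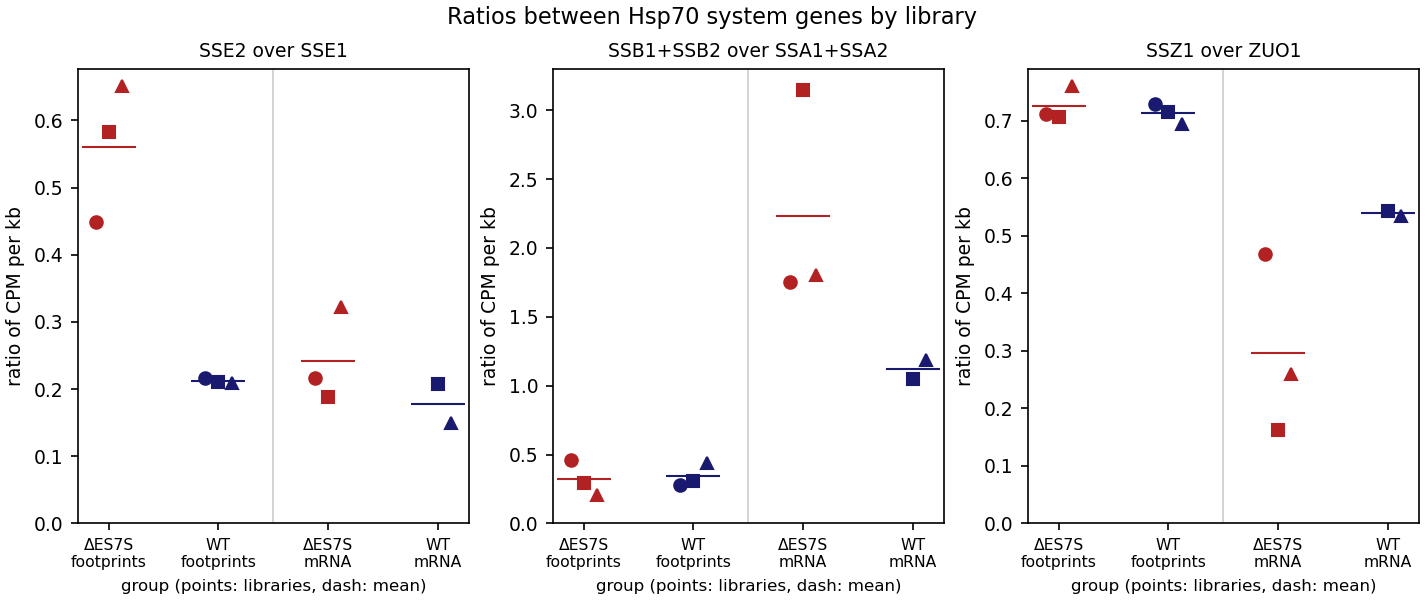
Ratios of CPM per kb in each library (points, 1 marker shape per replicate number) with group means (dashes), for SSE2 over SSE1 (left), SSB1 plus SSB2 over SSA1 plus SSA2 (middle) and SSZ1 over ZUO1 (right). SSE2 over SSE1 footprints average 0.560 in ΔES7S and 0.212 in WT, and SSZ1 over ZUO1 footprints 0.726 in ΔES7S and 0.713 in WT.

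Cochaperones of cytosolic Hsp70 were read from a list of 14 genes. Like the lists below, it was chosen with earlier results of these data known, which limits its counts as findings of their own. In footprints 3 rose, 2 fell and 9 did not pass by edgeR, beside 14.2% of all genes called higher and 12.6% called lower. The median log2 fold change was 0.09, against 0.00 for all genes. FES1, an exchange factor for Ssa, averaged 489.6 ± 44.7 CPM in ΔES7S and 253 ± 27.6 CPM in WT (SD, n = 3 each; log2 1.03 ± 0.14, SE; adjusted p = 0.00107). SIS1, an essential J-domain partner of Ssa, averaged 1637 ± 103 CPM in ΔES7S and 848 ± 143 CPM in WT (1.02 ± 0.17, adjusted p = 0.00265). HSP104, the disaggregase that works with Ssa, had 0.73 ± 0.22 (adjusted p = 0.0348, but 0.137 without ΔES7S replicate 2, 0.128 without WT replicate 2 and 0.153 without WT replicate 3). JJJ3, a J-domain protein of diphthamide synthesis, fell by 0.94 on the log2 scale (adjusted p = 0.00144). SWA2, an auxilin with a J domain named here after its value was seen, fell by 0.30 (adjusted p = 0.0415). JJJ3 was the 1 gene of the 14 that fell by DESeq2, with a replicate block, in the 11-library model and in 5 of the 6 fits that left out a library, so SWA2 lost its call in each of these. FES1, SIS1 and JJJ3 passed whichever library was left out. In mRNA 0 of the 14 passed by edgeR (2 higher and 1 lower at an unadjusted p under 0.05) and 0 by limma-voom. FES1 had 0.54 ± 0.14 (adjusted p = 0.0663 by edgeR) and was the 1 gene called by DESeq2 (0.00128), which called 1036 genes in all. The share of all genes at an unadjusted p under 0.05 was not counted, here or for the lists below. In translation efficiency SIS1 rose (1.59 ± 0.40, adjusted p = 0.0329, but up to 0.125 with single libraries left out), and the other 13 did not pass by edgeR, beside 4.63% of all genes called higher and 4.33% called lower. DESeq2 called 2 of the 14 higher and 1 lower, and limma-voom 1 higher and 1 lower. Over all genes DESeq2 called 903 in translation efficiency and limma-voom 506, against 501 by edgeR.

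Other chaperones that meet nascent chains were a list of 17 genes: the nascent polypeptide-associated complex, prefoldin and the TRiC chaperonin. In footprints 4 fell, 0 rose (0 at an unadjusted p under 0.05, and 0 by DESeq2 or limma-voom) and 13 did not pass by edgeR, beside 12.6% of all genes called lower and 14.2% called higher. The median was -0.18, and all 4 were TRiC subunits. CCT8 had -0.43 ± 0.12 (SE; adjusted p = 0.0234), CCT6 -0.41 ± 0.14, CCT4 -0.40 ± 0.13 and CCT5 -0.36 ± 0.12 (adjusted p = 0.0493). Each lost its call in 3 to 6 of the 6 fits that left out a library. In mRNA 0 of the 17 passed by edgeR (3 higher and 2 lower at an unadjusted p under 0.05) and 0 by limma-voom. DESeq2 called 2 higher and 1 lower, where it called 1036 genes in all. GIM5 (prefoldin) had 0.71 ± 0.23 (adjusted p = 0.107 by edgeR). In translation efficiency CCT3, CCT7 and CCT4 fell and 14 did not pass by edgeR, beside 4.33% of all genes called lower. DESeq2 called 5 of the 17 lower and limma-voom 3, where over all genes DESeq2 called 903, limma-voom 506 and edgeR 501. The median by edgeR was -0.25, against -0.01 for all genes.

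Of 5 Hsp70 genes of organelles the mitochondrial ECM10 fell in footprints (-0.46 ± 0.13, SE; adjusted p = 0.0278, but up to 0.104 with single libraries left out) and 4 did not pass by edgeR, beside 12.6% of all genes called lower. In mRNA 0 of 5 passed by edgeR (1 higher and 3 lower at an unadjusted p under 0.05) and 0 by limma-voom. DESeq2 called 2 lower, where it called 1036 genes in all. ECM10 had -0.85 ± 0.22 (adjusted p = 0.0668 by edgeR). LHS1 of the endoplasmic reticulum fell in translation efficiency and 4 did not pass by edgeR, beside 4.33% of all genes called lower. LHS1 had -0.75 ± 0.20 (adjusted p = 0.0399, but 0.0826 with a replicate block and 0.0565 without ΔES7S mRNA replicate 2). DESeq2 called 1 of the 5 higher and 1 lower, with 903 genes called in all. HSF1, MSN2 and MSN4, the regulators of heat shock and general stress genes, did not pass in any of the 3 comparisons by edgeR with TMM scaling and its low-count filter. At an unadjusted p under 0.05, 1 was lower in footprints, 1 higher and 2 lower in mRNA, and 1 higher and 1 lower in translation efficiency. HSF1 mRNA averaged 57.2 ± 20.6 CPM in ΔES7S (SD, n = 3) and 134 ± 19.3 CPM in WT (SD, n = 2; log2 -1.06 ± 0.22, SE; adjusted p = 0.0508 by edgeR, 0.00108 by DESeq2 and 0.0445 by limma-voom). By edgeR it passed with RLE scaling (adjusted p = 0.0482) or no low-count filter (0.0469), and also in the 11-library model and without ΔES7S replicate 1. It passed with a replicate block too, but no WT mRNA library has number 1. The block fit therefore also takes no strain difference from ΔES7S replicate 1, and both fits gave -1.27. HSF1 mRNA did not pass with upper-quartile scaling, with ribosomal protein genes left out before normalization or with paralogs summed. Nor did it pass with a filter of at least 10 CPM in every group mean, or without ΔES7S mRNA replicate 2 or 3. DESeq2 also called 1 of the 3 regulators higher in mRNA, and HSF1 higher in translation efficiency (0.75, adjusted p = 0.0347). HSF1 footprints had -0.29 ± 0.11 (adjusted p = 0.0658).

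Genes outside the system were compared with it by the correlation of log2 CPM over the 11 libraries after subtraction of each assay's mean, among 4907 candidates (log2 CPM of 4 or more on average). The sum of SSA3 and SSA4 was closest to DAK1 (r = 0.927), a dihydroxyacetone kinase, then to SNX4 (0.894) and CDC53 (0.887). SSA1 plus SSA2 was closest to KAR2 (r = 0.924), the Hsp70 of the endoplasmic reticulum, then to ISR1 (0.893) and YPS6 (0.865). The ribosome-bound sum was closest to VAC17 (r = 0.971), RPL40B (0.957) and CIS3 (0.942). These values describe 11 libraries that share their strain and library differences, and carry no test.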

How the data were processed

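Per the labels' protocols, footprints were made with RNase I and 80S ribosomes taken from a density gradient, and mRNA was enriched on oligo-dT and fragmented randomly, both size-selected at 24 to 28 nt and amplified without named molecular identifiers. The authors deposited raw counts per gene, 1 file per library, listing genes with at least 1 count, and absent genes were taken as 0. Per the submitters' processing notes FastQC 0.11.7 and Bowtie 1.2.3 were used. The genome build, annotation, counter, strand setting and rule for multi-mapping reads: not given in the sources used here. Of 5756 genes 5752 matched the RefSeq table of assembly R64, which gave symbols and lengths, used as annotated length.

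The tests were run with edgeR 4.0.16 under R 4.3.3 (low counts removed by filterByExpr, TMM, quasi-likelihood test with robust=TRUE, two-sided, Benjamini-Hochberg over all genes tested, threshold 0.05), after tests on simulated data. SE is the log2 fold change divided by the square root of F. Strain comparisons used 6 footprint or 5 mRNA libraries, and translation efficiency (the interaction) and within-strain contrasts all 11. Alternatives used DESeq2 1.42.0, limma 3.58.1, other scaling and filters, summed paralogs, a replicate block and each library left out. CPM do not include TMM factors (0.804 to 1.11). Counting error is small at these depths, but PCR copies are counted. No 2 libraries of a group were duplicates (chi-square per degree of freedom at least 27.5). Members and lists were chosen with earlier results of these data known. The named genes were all members, up to 4 called genes per list and comparison by size (or the lowest p), and the 3 most similar genes per profile.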

Additional observations from a re-analysis of the deposited data

Results flagged for a closer look

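The strain effect differed between footprints and mRNA, by the interaction test of edgeR over 11 libraries, for 5 of 39 genes of the lists related to the Hsp70 system. This stands beside 4.63% of 5588 genes called higher and 4.33% called lower. In edgeR's strain comparisons only SIS1 (adjusted p = 0.00265) and CCT4 (0.0391) of these 5 passed in footprints, and none passed in mRNA. SIS1 had 1.59 (log2, footprint change minus mRNA change, ΔES7S minus WT), from 1.02 ± 0.17 in footprints and -0.60 ± 0.34 in mRNA (SE). CCT3 had -1.07, from -0.29 ± 0.12 in footprints and 0.73 ± 0.24 in mRNA. CCT7 had -0.84, from -0.27 ± 0.12 and 0.53 ± 0.20, and CCT4 had -0.77, from -0.40 ± 0.13 and 0.33 ± 0.18. LHS1 had -0.75, from -0.19 ± 0.10 in footprints and 0.52 ± 0.18 in mRNA. Adjusted p ran from 0.0326 to 0.0444, and each lost its call in 6 to 9 of the 11 fits that left out a library.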

How the results depend on the processing

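No alternative turned the sign of a called member, and every value that changed sign belonged to a member past no test in that comparison. With paralogs summed, the SSE sum gave 0.06 for SSE1 and SSE2 in footprints (0 members then higher) and -0.28 for SSE2 in translation efficiency, and the SSA3 plus SSA4 sum 0.17 for SSA4 in mRNA. SSA3 had -0.02 in translation efficiency by limma-voom. With single libraries left out, footprint values ran from -0.13 to 1.08 (SSA3), -0.05 to 0.53 (SSB1) and -0.08 to 0.40 (SSB2), mRNA of ZUO1 from -0.21 to 0.06 (0.00 without ΔES7S replicate 3), and translation efficiency from -0.57 to 0.62 (SSA3) and -0.58 to 0.01 (SSB1). Single values of SSA3 in translation efficiency were -0.02 without ΔES7S mRNA replicate 1 and -0.10 without WT footprint replicate 3.

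In those fits 1 to 3 members rose and 0 fell in footprints, 0 to 3 rose and 0 to 1 fell in mRNA, and 0 to 1 rose in translation efficiency. Within WT 4 to 6 were higher in footprints and 0 to 3 lower, and within ΔES7S 6 to 7 and 2 to 3. All genes called numbered 684 to 1749 (1463 with all libraries; 740 without ΔES7S replicate 2, 916 without WT replicate 2, 684 without WT replicate 3) in footprints, 0 to 2467 (155) in mRNA and 11 to 1848 (501) in translation efficiency. Calls in mRNA numbered 1036 by DESeq2 (1 member higher), 323 by limma-voom and 1463 in the 11-library model (1 member lower). In translation efficiency DESeq2 called 903. Upper-quartile scaling gave 2 members lower within WT, with 3538 genes called there in all. With TMM scaling and all libraries, 3527 of 5588 genes were called within WT and 4021 within ΔES7S. The member counts within each strain stand beside such totals. Same-numbered footprint libraries of the strains correlated with r from 0.007 to 0.094, and those of the assays within ΔES7S with r from -0.059 to 0.267. Deviations of the 2 WT mRNA libraries from their mean mirror each other, so correlations with them (such as -0.487 and 0.487) cannot decide pairing. The numbers were not taken to pair libraries. With a replicate block 2 members rose and 1 fell in mRNA (1924 genes called), and 313 genes were called in translation efficiency. No WT mRNA library has number 1, so in mRNA this block also sets ΔES7S replicate 1 aside, as leaving it out does. Each member had at least 821 counts in every library. Without 1 WT mRNA library the other stood alone, and was assumed to vary like the remaining groups. The cause of these changes was not tested.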
